A study of Mus musculus with 10 samples.

Results

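The Hist1 cluster is the largest group of replication-dependent histone genes in the mouse, and it occupies 2 stretches of chromosome 13. Its members here are the enriched intervals (islands) of H3K4me3 and H3K27me3 that overlap either of 2 windows of the mouse build mm9, chr13:21790000-22150000 (window 1) and chr13:23600000-23870000 (window 2). The windows span 360 kb and 270 kb. Of 84243 islands in 4 lists, 112 overlapped a window. These were 54 of 28365 H3K4me3 islands in WT, 45 of 40978 in KO, 11 of 8067 H3K27me3 islands in WT and 2 of 6833 in KO.

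The study profiled embryonic stem cells of strain 129/C57BL/6 with BAF250a (WT) and after its knockout (KO), to compare the chromatin of both. BAF250a, encoded by Arid1a, is the DNA-binding subunit of 1 form of the BAF (SWI/SNF) chromatin remodeller. KO cells had received 1 µM 4-OH tamoxifen and WT cells ethanol, in both cases for 36 h from 4 h after passage, so genotype and exposure to the drug cannot be told apart. All cells grew on MEF feeders, and feeder chromatin may therefore be part of each library. Of 10 samples, 1 H3K4me3, 1 H3K27me3 and 1 input library and 2 micrococcal nuclease libraries belong to each genotype. The island lists of the 4 ChIP libraries were analysed, and the nuclease libraries were not used here. The KO H3K27me3 library is titled H2K27me3, while its antibody label reads H3K27me3. The lists carry no gene names, so markers of stem cells or feeders and the deletion in Arid1a could not be checked in them. There were no replicates, so no difference between WT and KO below could be set against a spread between libraries, and every interval covers read counting error only.

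Replication-dependent histone genes encode the H1, H2A, H2B, H3 and H4 proteins that package newly copied DNA. They are short, mostly lack introns, are transcribed in S phase and end in a stem-loop instead of a poly(A) tail. H3K4me3 marks active and poised promoters, whereas H3K27me3 is laid down by Polycomb repressive complex 2, often at silent developmental genes. Embryonic stem cells divide rapidly and spend much of their cycle in S phase.

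The gene content of the cluster was taken from the RefSeq table of build GRCm38.p6, which differs from the build of the islands, so single islands were not assigned to genes. It holds 56 genes with a Hist1h name or synonym. A first group of 24 genes comprises 1 H1, 8 H2A, 8 H2B, 2 H3 and 5 H4 genes. It also contains 40 other genes, of which 31 are tRNA genes, with the zinc finger gene Zfp184 and the protease gene Prss16 among the rest. The 31 tRNA genes stand in 1 run of 39 genes other than histone genes. Of the group, 19 histone genes precede this run and 5 follow it. Where the run falls among the islands of window 1 was not determined. A second group of 31 genes comprises 5 H1, 6 H2A, 7 H2B, 7 H3 and 6 H4 genes, interspersed with Hfe, an iron homeostasis gene, Trim38, and the Slc17a1 to Slc17a4 transporter genes. The pseudogene H2af-ps2 lies apart from both groups. H2A and H2B genes were neighbours in 13 pairs, and 10 of the 11 pairs with known strand lay on opposite strands. The 147 genes between the groups include 75 of the Vmn1r vomeronasal receptor family and 46 tRNA genes.

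Promoters of 51 of the 56 genes were found in the RefSeq promoter table (GRCm38.p6). At least 1 per histone class is printed to show the promoter letters these genes share, with H2ac13 and H2bc13 as a divergent pair and H2bc14 added, after the motifs had been counted, as an H2B promoter with the octamer. Each is the 150 bases before the start of the gene, 5′ to 3′ on the gene's strand. Capitals mark matches to the TATA sequence TATAAA, to CCAAT or to the octamer ATTTGCAT on either strand, so that ATTGG is CCAAT on the other strand.
H1f5 (chr13:21780626-21780775, minus strand): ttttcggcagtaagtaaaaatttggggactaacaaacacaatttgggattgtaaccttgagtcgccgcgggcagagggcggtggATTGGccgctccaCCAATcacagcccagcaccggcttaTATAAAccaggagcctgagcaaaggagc
H2ac13 (chr13:21716262-21716411, plus strand): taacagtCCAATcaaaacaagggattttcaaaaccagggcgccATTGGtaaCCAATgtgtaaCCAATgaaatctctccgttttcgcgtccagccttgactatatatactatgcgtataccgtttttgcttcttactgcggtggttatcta
H2bc13 (chr13:21716184-21716333, minus strand): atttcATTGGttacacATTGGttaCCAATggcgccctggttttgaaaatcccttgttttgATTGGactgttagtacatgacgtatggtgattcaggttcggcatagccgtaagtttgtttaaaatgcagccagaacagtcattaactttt
H2bc14 (chr13:21721894-21722043, plus strand): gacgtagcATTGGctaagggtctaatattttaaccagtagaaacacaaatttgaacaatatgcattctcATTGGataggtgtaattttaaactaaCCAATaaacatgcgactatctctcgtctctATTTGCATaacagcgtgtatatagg
H3c10 (chr13:21717478-21717627, plus strand): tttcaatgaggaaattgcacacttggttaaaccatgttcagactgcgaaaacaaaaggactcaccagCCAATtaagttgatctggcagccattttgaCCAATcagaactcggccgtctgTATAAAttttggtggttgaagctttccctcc
H4c11 (chr13:21734884-21735033, plus strand): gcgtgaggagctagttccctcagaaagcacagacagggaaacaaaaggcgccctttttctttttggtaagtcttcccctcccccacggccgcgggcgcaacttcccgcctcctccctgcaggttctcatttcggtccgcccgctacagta

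The H2ac13 and H2bc13 stretches overlap, and the same letters stand in both, read in opposite directions. TATAAA begins 28 bases before the start in H1f5 and 31 bases before it in H3c10, and ATTTGCAT begins 25 bases before it in H2bc14. The H4c11 stretch holds none of the 3 motifs. Promoters of 300 bases were searched on both strands. Counts are of genes, and a gene was counted if any of its promoters in the table matched. TATAAA stood in 31 of 51 Hist1 genes (60.8%) and in 15.7% of all 27025 genes in the table. CCAAT stood in 43 of 51 (84.3%) against 41.1% of all. ATTTGCAT stood in 11 of 51 (21.6%) against 1.97% of all.

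The classes differed in these letters. CCAAT was in all 6 H1, 13 H2A, 14 H2B and 7 H3 promoters but in 3 of 11 H4 promoters. TATAAA was found in every class, in 4 of 6 H1, 8 of 13 H2A, 7 of 14 H2B, 4 of 7 H3 and 8 of 11 H4 promoters. ATTTGCAT, the sequence bound by POU factors such as Oct1, was in 5 of 13 H2A and 6 of 14 H2B promoters and in none of the 6 H1, 7 H3 or 11 H4 promoters. Divergent H2A and H2B promoters overlap, so their matches are not independent. A match is a description of the letters and not of a bound site.

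H3K4me3 covered about as much of the cluster as it left free, in both libraries. In window 1, islands covered 57.1% of the length in WT and 58.2% in KO. In window 2 they covered 44.3% in WT and 50.0% in KO. When the genome was divided into 7328 tiles of the length of window 1, the median tile was covered to 1.56% in WT and 2.06% in KO, and 1 tile in WT and 5 in KO were covered as much as window 1. Of 9773 tiles of the length of window 2, 7 in WT and 31 in KO were covered as much. Such tiles may themselves lie on the cluster.

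The KO library had fewer H3K4me3 islands in the cluster than the WT library, while its whole list was longer. Window 1 held 35 islands in WT and 30 in KO, and window 2 held 19 in WT and 15 in KO. Over both windows this is 85.7 and 71.4 islands per Mb, against 10.7 and 15.5 per Mb over the whole lists. Among 296 tiles of 360 kb with 15 or more WT islands, 16.6% had fewer KO than WT islands, and the median tile had 1.22 times as many KO as WT islands. These tiles are not matched to the windows. Of all 7328 tiles of that length, 9 held as many WT islands as the 35 of window 1, and window 2 is 270 kb long. The covered length went the other way from the count, with 348.2 kb in WT and 368.2 kb in KO.

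The surroundings did not share the density of the windows. The 1450 kb between the windows held 19 WT and 21 KO islands, or 13.1 and 14.5 per Mb. The 300 kb before window 1 held 9 and 11, and the 300 kb after window 2 held 1 and 2. In each of these 3 stretches the KO library had more islands than the WT library, and in both windows it had fewer. The WT island with the most reads in the whole list, 7324 over 42.6 kb, lies between the windows at chr13:23506601-23549200, 50.8 kb before window 2, and the KO library had 1 island of 46.4 kb with 6897 reads there. In the GRCm38.p6 gene order, 24 of the 30 genes before the second histone group are tRNA genes.

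**Figure D1:**
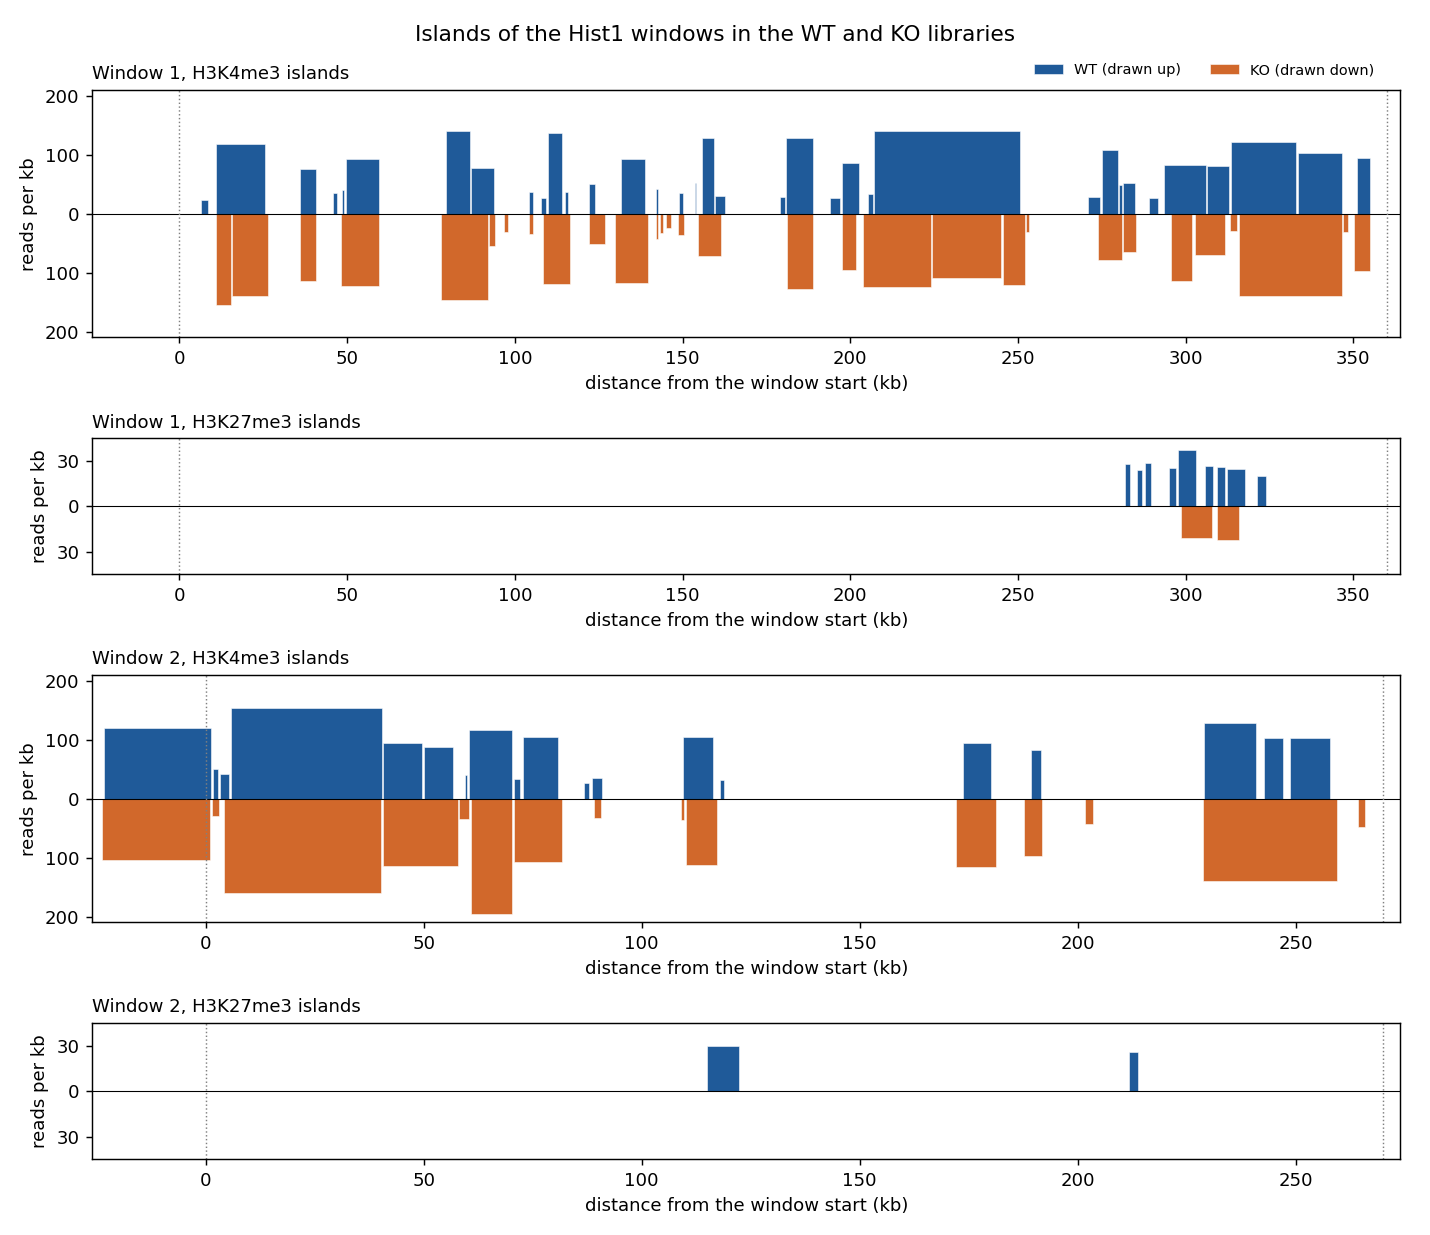
H3K4me3 and H3K27me3 islands along both windows, with distance from the window start in kb on the horizontal axis and ChIP reads per kb on the vertical axis, WT drawn up and KO drawn down and dotted lines at the window ends. H3K4me3 islands cover 57.1% of window 1 in WT and 58.2% in KO, whereas H3K27me3 islands stand in 1 stretch of window 1 and, in WT, at 2 places of window 2.

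**Figure D2:**
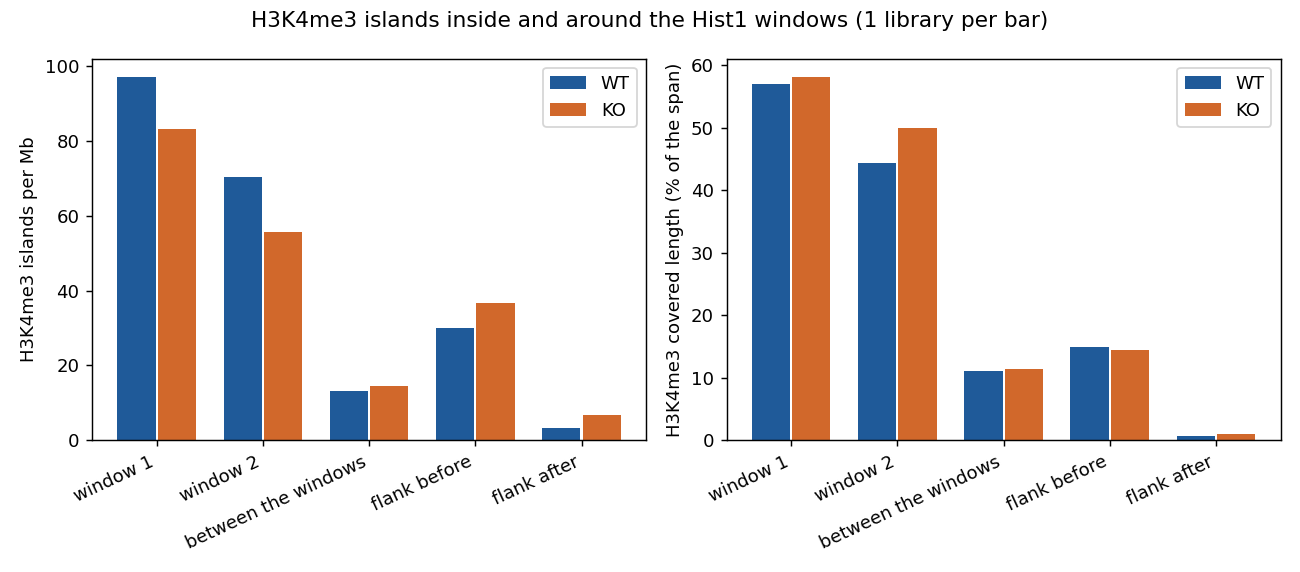
H3K4me3 islands per Mb (left) and the percentage of each span covered by islands (right) for the 2 windows, the stretch between them and 300 kb on either side, 1 library per bar and therefore no error bars. Both windows stand above their surroundings in both panels, and KO bars are lower than WT bars for island number but not for covered length in the windows.

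Hist1 islands were wide. The median island measured 3700 bp in WT (400 to 43400 bp) and 5000 bp in KO (600 to 36000 bp), against 2400 and 2000 bp over the whole lists. WT had 8 islands of 10 kb or wider in the windows and KO had 12. The WT island chr13:21997201-22040600 measured 43.4 kb and held 6128 reads, which placed it at rank 2 by width and rank 3 by reads in the WT list. In window 2, the WT island chr13:23605801-23640400 held 5329 reads (rank 5) and the KO island chr13:23604201-23640200 held 5789 (rank 15). Among the 100 islands with most reads, 3 overlapped a window in each list. Of all islands, 54 of 28365 in WT and 45 of 40978 in KO did. Of the 3 in WT, chr13:23576801-23601200 (rank 38) lies mostly outside window 2.

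Read density inside the islands was above that of the lists as a whole, while other long regions gave no reference matched for length. In WT, Hist1 islands held 37548 ChIP and 3285 control reads, or 107.8 and 9.43 reads per kb, against 94.3 and 12.7 per kb over all WT islands. In KO they held 43544 ChIP and 3647 control reads, which is 118.3 and 9.90 per kb, against 91.6 and 12.04 per kb. Fold over input, which is the ratio of ChIP to control reads multiplied by 1 depth constant per list, was 6.42 in WT and 8.87 in KO over the pooled Hist1 islands. Over the whole lists it was 4.16 and 5.65. Among 4573 other regions shared by WT and KO and at least as long in WT as the Hist1 median of 7 kb, the median WT density was 110.7 reads per kb and the median KO density 122.1, against 91.5 and 104.6 in the shared Hist1 regions. The median fold there was 5.52 and 8.18, against 4.95 and 8.19 in Hist1. Hist1 regions shorter than 7 kb were kept in, and the median WT length was 7 kb in Hist1 and 9 kb in the others. These medians are therefore not matched for length, and they do not show whether the cluster stood out among long regions.

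The windows differed less in fold in WT than in KO. In window 1 the WT islands had 102.7 reads per kb and the KO islands 111.2, with 9.45 and 10.3 control reads per kb and a fold of 6.11 and 8.05. In window 2 they had 115.2 and 127.5, with 9.40 and 9.43 control reads per kb and a fold of 6.88 and 10.1.

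To compare the same places, overlapping WT and KO islands were merged into regions. The windows held 46 regions, of which 31 were shared by both libraries, 8 had islands in WT alone and 7 in KO alone. Counted by island, 8 of 54 WT islands lacked a KO island (14.8%), against 5.34% of all WT islands. In KO, 7 of 45 lacked a WT island (15.6%), against 40.4% of all KO islands. The share without a partner was thus smaller than in the list for KO islands and larger than in the list for WT islands. H3K4me3 islands covered 57.1% (WT) and 58.2% (KO) of window 1, against 3.84% and 5.59% of the genome. An island of 1 library placed in a window would therefore often meet one of the other, and the shares over the lists are not a matched reference.

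Islands found in 1 library alone had few reads, and their fold ranged widely. The 8 WT islands held 21 to 77 reads each and 0.956% of the H3K4me3 reads of the windows, and 5 of them lay within 1 kb of a KO island. The 3 with most reads were chr13:21984001-21986800 with 77 ChIP and 19 control reads, chr13:22079201-22081800 with 69 and 2, and chr13:21796401-21798600 with 51 and 7. The 7 KO islands held 30 to 77 reads each and 0.765% of the reads, and 2 lay within 1 kb of a WT island. Of these, chr13:23864201-23865800 held 77 ChIP and 22 control reads, chr13:23801601-23803400 held 76 and 26, and chr13:22137001-22138400 held 43 and 6. Fold over input was 1.59 to 6.69 in the KO islands. In the WT islands it was 1.43 to 4.09 where there were 5 or more control reads. The other 4 WT islands had 1 or 2 control reads, which leaves their fold poorly determined, from 11.8 (1.90 to 488) at chr13:21943601-21944000 to 23.6 (4.01 to 954) at chr13:21835801-21837000. A place without an island has no deposited count, which differs from a count of 0.

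The lower KO count came mainly from places where several WT islands corresponded to 1 KO island. Of the 31 shared regions, 17 had 1 island in each library, 8 had several in WT and 1 in KO, 2 had 1 in WT and several in KO, and 4 had several in both. Over all shared regions of the genome, 10.3% had several WT islands and 1 KO island, 2.69% the reverse, and 1.43% several in both. Hist1 regions are long, however. Among the 4573 other long shared regions, 32.0% had several WT islands and 1 KO island, against 25.8% in Hist1. Several KO islands were found in 13.5% of those long regions and in 19.4% of Hist1 regions. The Hist1 shares count all 31 regions, shorter ones included, and so are not matched for length. They do not show whether joining was rarer or more common in Hist1 than in regions of equal length.

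The gaps that separated these islands were short. The smallest gap in the H3K4me3 lists is 400 bp. Of 11 WT gaps in the 8 regions joined in KO, 6 measured 400 bp and the longest measured 2000 bp. Of 7 KO gaps inside shared regions, 6 measured 400 bp.

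The widest of the joined regions was chr13:23603401-23640400. It held 2 WT islands (36.6 kb, 5413 reads) and 1 KO island (36.0 kb, 5789 reads), with a fold over input of 10.5 and 12.6. At chr13:23828801-23859400, 2896 reads fell in 3 WT islands of 25.2 kb in all, parted by gaps of 2000 and 1600 bp, and 4296 reads in a single KO island of 30.6 kb. The KO island ran through both WT gaps, and its fold was 9.82 against 5.43. At chr13:23640601-23657800, 1428 reads fell in 2 WT islands (15.6 kb) and 1976 in a single KO island (17.2 kb). At chr13:21838201-21849400, 932 reads fell in 2 WT islands and 1369 in a single KO island. At chr13:23670801-23681800, 888 reads fell in 2 WT islands and 1179 in a single KO island. In these 5, the ones with the widest KO islands, the KO library had more reads and a higher fold. Over all shared regions of the genome, fold was higher in KO in 91.5%, and KO reads were 1.31 times WT reads. Divided by that 1.31, the log2 ratios of reads were −0.30, 0.17, 0.07, 0.16 and 0.01, in the order named. Of the other 3 joined regions, chr13:21897801-21906400 also held more reads in KO (954 against 686), while chr13:21944601-21952800 held fewer (506 against 556), as did chr13:22060801-22071000 (544 against 668).

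The longest region of the windows, chr13:21993801-22042000, had more islands and fewer reads in KO. Whether it lies on histone genes or on the run of tRNA genes was not determined. It held 2 WT islands of 44.8 kb in all and 3 KO islands of 47.4 kb, the latter parted by 2 gaps of 400 bp. ChIP reads numbered 6176 in WT and 5541 in KO, control reads 369 and 440, and the fold was 9.41 and 9.36. Here the KO library had a lower read density, 116.9 against 137.9 reads per kb, over a similar length. The third in width, chr13:22103201-22136600, went the other way, with 3744 reads in WT and 4341 in KO over 32.6 and 33.0 kb and a fold of 6.56 and 9.35.

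The 31 shared regions together covered 335.6 kb with 37189 reads in the WT library and 358.6 kb with 43211 reads in the KO library. KO thus had 1.16 times as many reads, against 1.31 times over all shared regions of the genome, and 1.07 times the length, against 1.22 times. Reads per kb were 1.09 times as high in KO, against 1.07 times over all, and control reads per kb were 1.03 times as high, against 0.933 times. The KO islands covered more bp in 22 of 31 regions, fewer in 7 and equally many in 2, against 71.8% of all shared regions that covered more bp in KO.

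The sign of the KO to WT difference depended on the scale. Scaled reads are the KO to WT ratio of reads divided by its value over all shared regions of the genome, which removes a change common to the lists. On this scale the Hist1 regions stood at 0.884 (95% interval 0.872 to 0.896), or −0.18 on the log2 scale. By fold over input, the KO to WT ratio was 1.40 (1.33 to 1.47), or 0.48 on the log2 scale. The ratio of folds over all shared regions was 1.52. The KO library therefore held more reads and a higher fold in the cluster than WT, with both ratios below those of the lists as a whole.

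Region by region the scaled reads were spread around no difference. The median log2 ratio was −0.01 (−1.01 to 1.27), against 0.04 over all shared regions and −0.08 over the long regions. Scaled reads were higher in KO in 14 of 31 regions (45.2%) and lower in 17, against 54.3% higher over all shared regions. The interval lay above 0 in 9 regions, against 28.9% of all, and below 0 in 11, against 24.6%. A ratio of at least 1.5 was reached in 3 of 31 regions higher in KO, against 16.1% of all shared regions, and in 3 lower in KO, against 5.93%. Fold over input was higher in KO in 28 of 31 regions (90.3%), against 91.5% of all shared regions, and its interval lay above 0 in 14, against 49.3%. It was at least 1.5 times higher in 13 of 31, against 57.1% of all regions, and at least 1.5 times lower in 0, against 2.07%. The median log2 fold ratio was 0.51 (−0.24 to 1.22), against 0.66 over all and 0.59 over the long regions.

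**Figure D3:**
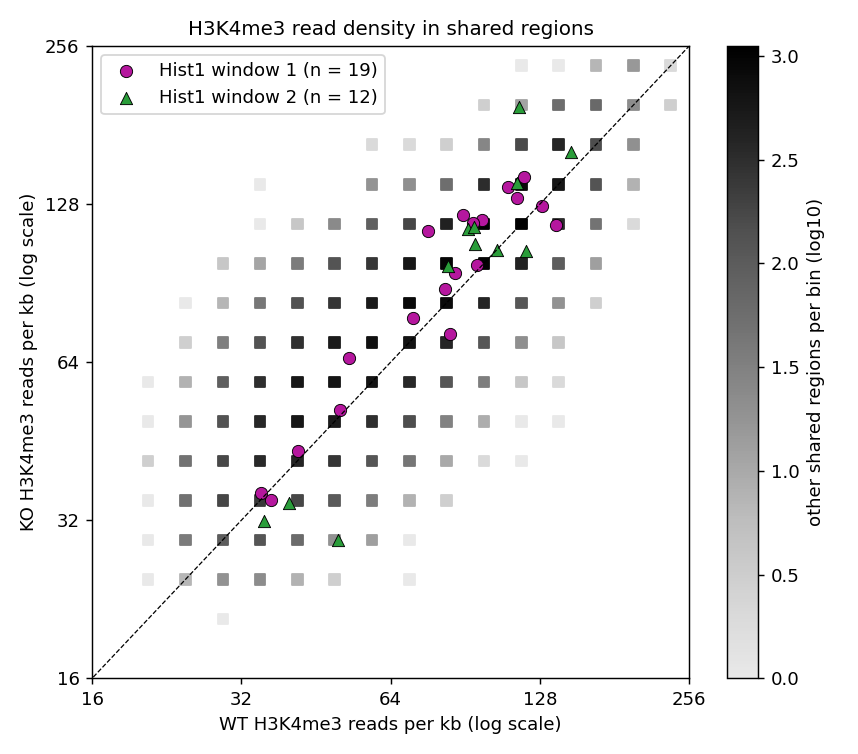
H3K4me3 ChIP reads per kb in WT (horizontal) and KO (vertical), both on log scales, for each shared Hist1 region of window 1 (circles, n = 19) and window 2 (triangles, n = 12), over a grey count of other shared regions. Hist1 regions lie along the dashed line of equality, and 22 of the 31 lie above it, against 70.9% of all shared regions.

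The regions with the highest scaled reads in KO included 3 of 5 kb or less. At chr13:23658201-23660400 the WT island measured 0.6 kb with 24 reads and the KO island 2.2 kb with 76, a log2 scaled ratio of 1.27 (0.59 to 2.00). At chr13:21912001-21917000 they measured 2.0 and 5.0 kb with 101 and 259 reads, a ratio of 0.96 (0.63 to 1.31). In both the KO island was longer at a similar density, 34.5 against 40.0 and 51.8 against 50.5 reads per kb. The next was chr13:23787601-23791800 with 200 reads in WT and 409 in KO (0.64, 0.39 to 0.89). At chr13:21919801-21929800 there were 655 and 1179 reads (0.45, 0.31 to 0.59), and the KO fold of 7.01 against 3.02 gave the highest fold ratio of the cluster. At chr13:23772201-23781200 there were 623 and 1041 reads, and the fold was 4.93 and 9.43.

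The lowest scaled reads in KO were found in a short region and 4 longer ones. At chr13:23688601-23690800 the WT island held 78 reads and the KO island 51 (−1.01, −1.55 to −0.48), while the fold was 2.31 and 2.37. At chr13:22060801-22071000, 3 WT islands held 668 reads and 1 KO island held 544 (−0.69, −0.86 to −0.53). At chr13:22083601-22102800 there were 1549 and 1343 reads (−0.60, −0.71 to −0.49). At chr13:23576201-23601200, which begins before window 2 and overlaps its start, there were 2931 and 2579 reads (−0.58, −0.66 to −0.50). The longest region, described above, stood at −0.55 (−0.60 to −0.50). These 4 long regions held fewer reads in KO before any scaling, while their folds differed by less than 1.5 times between the libraries.

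Regions with identical ends in both libraries leave no room for a difference in length. At chr13:21894201-21895400, 1.2 kb long, there were 44 ChIP and 14 control reads in WT and 42 and 15 in KO. At chr13:21932201-21932800, 0.6 kb long, there were 25 and 7 in WT and 26 and 9 in KO. Both were singled out after their values were seen, and both are among the weakest of the shared regions, with folds between 1.77 and 2.15. At chr13:23660401-23670200, also chosen after its values were seen, the KO island had the highest density of the cluster, 195.6 reads per kb against 116.2 in WT, and a fold of 12.7 against 6.10.

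Window 1 was not uniform along its length. A split at 150 kb was chosen after the values were seen, so its parts are described without support for a boundary. In the first 150 kb, 10 shared regions held 6113 reads in WT and 8751 in KO, 97.7 and 119.5 reads per kb, with 11.5 and 10.8 control reads per kb. Their WT fold was 4.77 and their KO fold 8.24, and their log2 scaled ratio was 0.12 (0.08 to 0.17). Scaled reads were higher in KO in 7 of these regions and lower in 3, against 54.3% higher over all shared regions. In the remainder, 9 shared regions held 14693 reads in WT and 14362 in KO, 111.0 and 110.5 reads per kb, with 8.96 and 10.2 control reads per kb. Their fold was 6.96 and 8.08 and their log2 scaled ratio −0.43 (−0.46 to −0.39). Intervals lay below 0 in 7 of the 9, against 24.6% of all shared regions, a count that depends on where the split was placed. The other 2, chr13:22071401-22075200 and chr13:22140201-22144800, stood at −0.01 with intervals across 0.

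Window 2 resembled neither stretch as a whole. Its first region, at −0.58, lies mostly outside the window. The other 11 regions had a pooled log2 scaled ratio of −0.01 (−0.05 to 0.02) and a log2 fold ratio of 0.66 (0.54 to 0.78). Over all its regions, the scaled ratio was 0.933 (0.914 to 0.953) in window 2 and 0.845 (0.829 to 0.861) in window 1, and the fold ratio was 1.49 (1.38 to 1.61) and 1.33 (1.24 to 1.42).

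**Figure D4:**
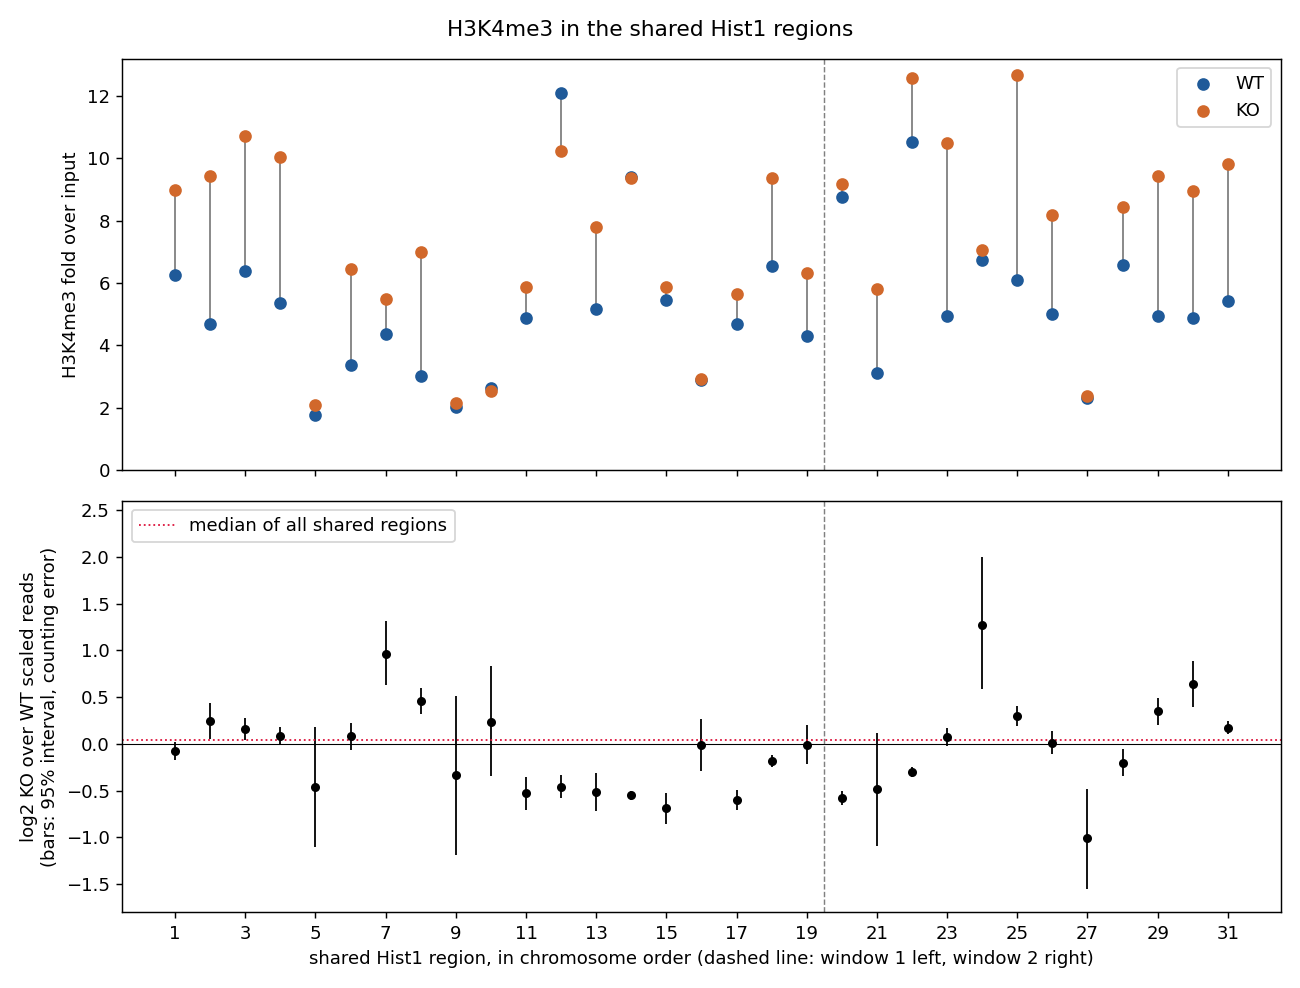
Fold over input of H3K4me3 in WT and KO (top) and log2 KO over WT scaled reads with 95% counting intervals (bottom) for the 31 shared Hist1 regions in chromosome order, with a dashed line between the windows. Fold is higher in KO in 28 regions, against 91.5% of all shared regions. In the later part of window 1, regions 11 to 19, intervals of scaled reads lie below 0 in 7 of 9, against 24.6% of all shared regions. That part was set apart after the values were seen.

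Regions at different levels in WT differed from KO to different extents. Of the shared regions, 8 had a WT fold under 4, and their median log2 fold ratio was 0.17, against 0.80 over 15041 other regions of that level. The 13 regions with a WT fold of 4 to 6 had a median of 0.71, against 0.54 over 4475 others. The 10 with a WT fold of 6 or more had a median of 0.31, against 0.37 over 3734 others. WT fold is also the denominator of this ratio.

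H3K27me3 islands covered far less of the cluster than H3K4me3 islands and stood at 3 places, but they were denser there than over the genome, mainly in WT. Over both windows there were 17.5 islands per Mb in WT, against 3.05 per Mb over the whole list, and 3.17 per Mb in KO, against 2.59. They covered 5.43% of the window length in WT and 2.51% in KO, against 1.34% and 1.37% of the genome. Window 1 held 9 WT and 2 KO islands, and window 2 held 2 WT islands and 0 KO islands. The WT islands of window 1 stood within 42 kb, at chr13:22071801-22113800, and the rest of the window had none in either library. Of the tiles of the length of window 1, 90 of 7328 had 9 or more WT H3K27me3 islands and 1463 had 2 or more KO islands, and the median tile had 0 in both. WT islands without a KO island numbered 7 of 11 (63.6%), against 50.4% of all WT H3K27me3 islands and 55.0% of other WT islands in the same range of reads. Both KO islands overlapped a WT island, whereas 41.5% of all KO H3K27me3 islands did not.

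The WT islands of the 42 kb stretch held 39 to 195 reads each. From its start, chr13:22071801-22073400 held 45 ChIP and 14 control reads (fold 1.92), and chr13:22075401-22077000 held 39 and 13 (1.79). The next, chr13:22077801-22079800, held 57 ChIP but 3 control reads, a fold of 11.3 (95% counting interval 3.69 to 56.5), and chr13:22085001-22087000 held 51 and 7 (4.34). Then followed chr13:22087801-22093000 at 195 and 55 reads (2.11), which is the highest read count of H3K27me3 in window 1. The 2 islands with the highest fold are those with the fewest control reads.

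The later islands lay near a fold of 2. They were chr13:22095801-22098000 with 59 ChIP and 17 control reads (2.07), chr13:22099401-22101600 with 57 and 17 (2.00), chr13:22102401-22107800 with 132 and 32 (2.46) and chr13:22111201-22113800 with 52 and 21 (1.48). In KO the same stretch held chr13:22088601-22097800, 9.2 kb with 191 ChIP and 92 control reads (2.02), and chr13:22099401-22106000, 6.6 kb with 145 and 51 (2.77). The KO islands thus lay over the middle of the WT stretch, each across 2 WT islands. Pooled over window 1, the fold was 2.29 in both libraries, while control reads per kb were 7.22 in WT and 9.05 in KO.

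Window 2 had H3K27me3 islands in WT alone. The first, chr13:23715001-23722400, measured 7.4 kb with 222 ChIP and 24 control reads, a fold of 5.51, and the nearest KO H3K27me3 island lay 210.4 kb away. The second, chr13:23811801-23813800, held 52 ChIP and 0 control reads, and a floor of 3 control counts puts it at least 10.3-fold over input. Its nearest KO island lay 267.6 kb away. The KO list had no island for 95.4 kb before the window and 211.4 kb after it. Of 9773 tiles of the length of window 2, 6630 had no KO H3K27me3 island, and 1785 had 2 or more WT H3K27me3 islands. Since the KO list gives no count outside islands, the KO level at these 2 places of window 2 is unknown.

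Over both windows, the WT H3K27me3 islands covered 34.2 kb with 961 reads (28.1 per kb) and the KO islands 15.8 kb with 336 (21.3 per kb). The densities over the whole lists were 32.2 and 23.3 reads per kb. Pooled, the WT islands had a fold of 2.82 and the KO islands one of 2.29, against 2.31 and 1.98 over the lists. The median island, by contrast, had a density of 26.0 (WT) and 21.4 (KO), against 25.7 and 19.7 over the lists, so the order depends on whether islands are pooled.

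The marks met in part of the H3K27me3 stretch. Of 54 WT H3K4me3 islands, 7 overlapped a WT H3K27me3 island (12.96%), against 10.8% over the WT list. Of 45 KO H3K4me3 islands, 4 did (8.89%), against 6.78% over the KO list. Seen from the other mark, 9 of 11 WT and 2 of 2 KO H3K27me3 islands overlapped H3K4me3, against 37.4% of all WT and 41.9% of all KO H3K27me3 islands. The exceptions were chr13:22075401-22077000 and the window 2 island with 0 control reads. H3K4me3 islands covered 57.1% of window 1 in WT and 58.2% in KO, against 3.84% and 5.59% of the genome. An H3K27me3 island placed anywhere in the window would thus often meet one, and the shares over the lists are not a matched reference. The H3K27me3 island with a fold of 11.3 shared 600 bp with chr13:22079201-22081800, a H3K4me3 island found in WT alone with 2 control reads, and no KO island of either mark overlapped the pair.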

How the data were processed

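Chromatin immunoprecipitation of H3K4me3 and H3K27me3 was analysed in 1 library per genotype and mark, from cells fixed in 1% formaldehyde for 10 min, with chromatin cut by micrococcal nuclease and sonication and sequenced as 50 bp reads, per the labels. The submitters' processing notes name Bowtie, SICER 1.1 and mm9, and the names of the deposited lists give 200 bp as window, 200 bp (H3K4me3) or 600 bp (H3K27me3) as gap and 0.05 as FDR. How reads were filtered and duplicates handled is not given in the sources used here. The authors deposited for each island an unscaled ChIP read count, an unscaled control read count, a p-value, an adjusted p-value and a fold over control. The deposited fold equals ChIP over control reads times a constant per list, 0.562 (WT) and 0.743 (KO) for H3K4me3 and 0.596 and 0.974 for H3K27me3. Library totals are not in the lists, so how deeply WT was sequenced relative to KO cannot be told.

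Positions are 1-based, with 1 added to each start and end of the lists. Islands overlapping by 1 bp or more were merged into regions, and ratios were computed where both libraries had an island and at least 20 reads. Intervals are 95% exact conditional binomial for read ratios and normal on the log scale for fold ratios. No p-value between genotypes was computed. Named regions were the 5 widest, the 5 highest and 5 lowest by scaled reads, up to 3 with most reads in each genotype alone, and up to 5 with several WT islands and 1 KO island, by KO width. Every H3K27me3 island in a window was also named. Any other region was named after its values were seen. The members, windows and lists were chosen with earlier results of these data known. Alternatives were the overlap, FDR, fold, scaling, read minimum, list length and window edges, and leaving out the region with most reads was added after seeing the data. Scripts ran in Python 3.11.15 with scipy 1.17.1, pandas 2.3.3, numpy 2.4.6 and, for plots, matplotlib 3.10.9. Overlaps checked against bedtools 2.31.1 differed by 0 islands, and scaled read ratios with their intervals were tested on simulated ChIP reads. The fold ratios and their intervals were not tested in that way.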

Additional observations from a re-analysis of the deposited data

How the results depend on the processing

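The log2 scaled read ratio of the shared Hist1 regions (−0.18) was −0.12 when scaled on chromosome 13, −0.22 when scaled by the median region and −0.11 without the region with most reads, chr13:21993801-22042000. It was 0.22 with no scaling, which moves every region of the genome alike, and 0.017 for scaled reads per kb, which takes out the smaller gain of covered length in the cluster. The log2 fold ratio (0.48) was 0.56 without that same region. WT H3K27me3 islands numbered 7 when a fold of 2 or more was required. Of 35 alternatives, 28 left the result within its limits. No paired analysis was possible because each genotype and mark had 1 library. Read depth limits the short regions and the H3K27me3 islands, whose counts are low.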
